A study of Saccharomyces cerevisiae with 72 samples.

Results

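The 56 ribosome biogenesis genes described here were taken by their systematic names. They encode the small-subunit processome (the UTP proteins, Imp3p, Imp4p and Mpp10p), the protein cores of the box C/D and H/ACA small nucleolar ribonucleoproteins, and the NOP, RRP, DBP, NOC and NOG assembly factors. Values were read for 55 of the 56, out of 6496 genes measured in every condition of the RNA-seq experiment, and the remaining gene is not analysed here. The choice of genes used no expression value of the table. Of the 10 genes followed throughout, *UTP10* (YJL109C) and *PWP2* (YCR057C) encode subunits of the UTP-A and UTP-B complexes, *NOP1* (YDL014W) and *MPP10* (YJR002W) box C/D and U3 proteins, *RRP5* (YMR229C) and *NSR1* (YGR159C) factors of early pre-rRNA processing, *CBF5* (YLR175W) an H/ACA protein, and *NOP7* (YGR103W), *DBP3* (YGL078C) and *NOG1* (YPL093W) large-subunit factors.

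Ribosome biogenesis begins in the nucleolus, where RNA polymerase I makes a long precursor ribosomal RNA. The U3 ribonucleoprotein and the small-subunit processome assemble on that precursor as it emerges and lead to its first cleavages. Box C/D particles guide 2'-O-methylation and H/ACA particles guide pseudouridylation, and a further set of helicases, GTPases and scaffold proteins build the large subunit. In budding yeast these genes form a coregulated group that is expressed in growing cells and shut down in starvation, and they are regulated apart from the genes of the ribosomal proteins themselves. Many carry the PAC and RRPE promoter motifs, which are bound by the repressors Dot6p and Tod6p (PAC) and Stb3p (RRPE).

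The RNA came from diploid S288c cells moved from acetate-grown culture into potassium acetate sporulation medium and sampled over 12 hours (at 0, 2, 4, 6, 8 and 12). There were 6 strains: wild type and *kar4*Δ/Δ, which lacks the yeast homolog of METTL14 needed for mRNA methylation, each with endogenous promoters, with *IME1* under the estradiol-inducible Pzev promoter (Pzev-*IME1*), or with both *IME1* and *RIM4* under it (Pzev-*IME1* Pzev-*RIM4*). In the study's strain list the Pzev alleles are heterozygous, with an unaltered copy of each gene beside them. The listed strains also differ in auxotrophic markers, such as *HIS3* and *URA3*. The part of these markers in the differences between strains was not tested. *IME1* encodes the transcription factor that starts meiosis and *RIM4* an RNA-binding protein that acts in meiosis. Estradiol went into the Pzev cultures at the move to sporulation medium, and the 0 hour reference of wild type is described as taken before sporulation was induced. For the Pzev strains no source used here states outright that the 0 hour sample preceded the estradiol. Each of the 36 conditions had 2 biological replicates, but the values are the authors' DESeq2 log2 fold changes against wild type with endogenous promoters at 0 hours, with the replicates already combined. No value therefore has an error, the depth is unknown and conditions could not be tested against each other. A level below is such a log2 fold change, a difference is the subtraction of 1 level from another, and a difference of at least 1 on the log2 scale (2-fold) was counted. In a bulk sample fewer cells that express a gene and less RNA per cell cannot be told apart.

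Markers of the cultures bear on several of the results. *KAR4* itself was at -0.55 in the column labelled *kar4*Δ/Δ with endogenous promoters at 0 hours, against -3.96 to -4.88 in the later columns of that strain, so that column goes against its label. In the other *kar4*Δ/Δ strains *KAR4* was at -4.54 or lower in each column. The 10 genes of the meiotic program had a median of 3.12 at 0 hours in wild type Pzev-*IME1* Pzev-*RIM4*. There *IME2*, an early meiotic kinase, was already at 4.36. The other 5 strains had medians from -0.19 to 0.32 at 0 hours, but *IME1* itself was already raised in every Pzev strain. Wild type had an *IME1* level of 1.94 with Pzev-*IME1* and 3.03 with both promoters. For *kar4*Δ/Δ these levels were 1.52 and 1.41, against -0.64 with endogenous promoters. The part of this early *IME1* in the 0 hour levels of the Pzev strains was not tested. The medians of all 6496 genes lay between -0.03 and 0.02 in all columns.

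All but 1 of the 55 promoters carried the PAC core. In windows of 300 bases, from 250 bases before each gene's start to 50 bases after it, the PAC core (searched as GATGAG on both strands) was found in 54 of 55 genes (98.2%), against 20.3% of the 6020 promoters of all protein-coding genes. The RRPE core (searched as AAAATTTT, which reads the same on both strands) was found in 47 of 55 (85.5%), against 9.0% of all promoters. Both stood in 46 windows (83.6%), against 4.37% of all. The letters of the 2 motifs cannot overlap each other, and overlapping copies of 1 motif were each counted. The sequences shown are from the R64 assembly of RefSeq, the same assembly as sacCer3, read 5′ to 3′ in the direction of the gene, with both motifs in capitals. A PAC core on the opposite strand appears as its reverse complement. *NOP7*, a scaffold of the large subunit, had the most motif copies of the 10 genes named throughout, with 3 overlapping PAC cores between 2 RRPE cores (chrVII:695167-695466, plus strand). *NOP1*, the fibrillarin methyltransferase of box C/D particles, had 1 of each, and its PAC core was on the opposite strand (chrIV:427114-427413, plus strand). Both windows are shown whole because they are at the ends of the range.
NOP7: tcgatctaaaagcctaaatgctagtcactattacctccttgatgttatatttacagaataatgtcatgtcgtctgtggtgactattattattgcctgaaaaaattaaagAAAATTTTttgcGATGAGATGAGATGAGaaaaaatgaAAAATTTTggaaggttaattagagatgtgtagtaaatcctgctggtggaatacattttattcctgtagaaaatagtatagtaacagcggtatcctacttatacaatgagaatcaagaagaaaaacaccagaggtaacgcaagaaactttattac
NOP1: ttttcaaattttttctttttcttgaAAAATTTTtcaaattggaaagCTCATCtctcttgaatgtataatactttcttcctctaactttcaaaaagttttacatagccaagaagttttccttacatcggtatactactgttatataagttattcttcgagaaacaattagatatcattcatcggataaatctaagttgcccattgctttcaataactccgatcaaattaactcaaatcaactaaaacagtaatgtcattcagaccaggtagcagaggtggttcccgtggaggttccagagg

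Shorter stretches show how closely the pair sits in genes of the UTP-A complex (*UTP10*, chrX:217389-217440, minus strand), the UTP-B complex (*PWP2*, chrIII:223352-223397, minus strand), the Mpp10p complex (*MPP10*, chrX:438758-438810, plus strand) and the nucleolin homolog *NSR1* (chrVII:807806-807858, minus strand). *UTP15* (chrXIII:453867-453924, plus strand) is the gene with no PAC core in its window, and it held 2 RRPE cores.
UTP10: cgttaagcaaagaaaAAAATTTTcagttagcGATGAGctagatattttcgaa
PWP2: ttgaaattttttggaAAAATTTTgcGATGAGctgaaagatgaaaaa
MPP10: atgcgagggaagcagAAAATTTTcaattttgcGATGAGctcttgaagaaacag
NSR1: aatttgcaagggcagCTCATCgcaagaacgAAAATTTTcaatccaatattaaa
UTP15: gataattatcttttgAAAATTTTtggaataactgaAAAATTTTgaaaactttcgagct

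Counting only the bases before the start, 45 genes held both cores. In 40 of these 45 the nearest pair was separated by 30 bases or fewer, with a median gap of 10 bases, and in 35 of 45 the PAC core was the nearer to the gene. The copies of the PAC core had a median position 114 bases upstream of the start and the RRPE cores 129.5 bases. The other assembly factors had the PAC core in 87.2% and the RRPE core in 73.3% of 86 promoters. The RNA polymerase I list, which holds subunits, the *RRN* initiation factors and *HMO1*, had them in 76.5% and 47.1% of 17. Ribosomal protein genes were below the background of all promoters, with the PAC core in 10.9% and the RRPE core in 6.57% of 137. None of the 10 meiotic genes held either motif. In 18 of the 55 genes the window also overlapped that of a gene on the other strand. A motif in the shared stretch lies in both windows, but which motifs lie there was not counted.

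**Figure D1:**
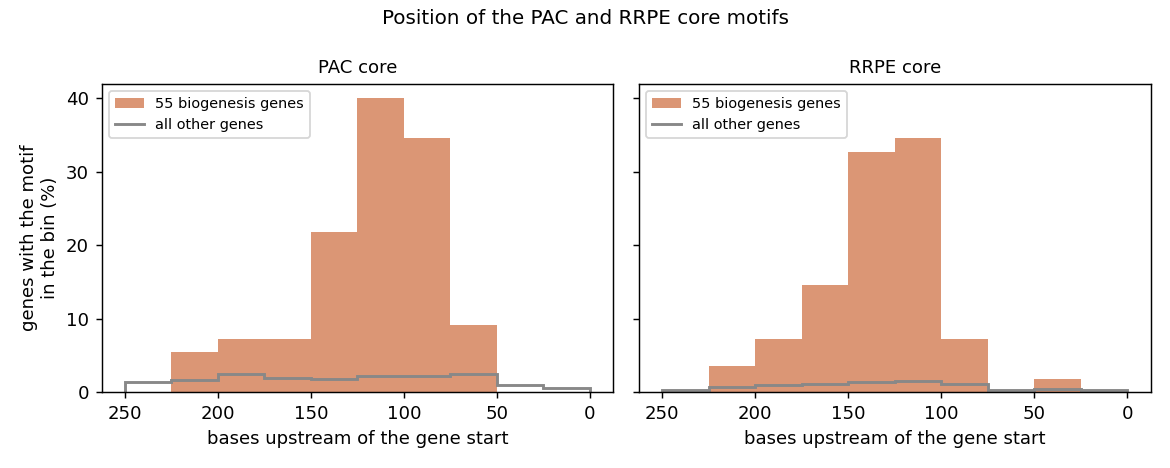
Share of genes (%) with a PAC core (left) or RRPE core (right) starting in each bin of 25 bases upstream of the gene start, for the 55 ribosome biogenesis genes (filled) and all other protein-coding genes (line). The PAC core is in 40.0% of the 55 genes between 100 and 125 bases upstream, and the RRPE core in 34.5% of them in the same bin, while no bin of the other genes is above 2.51%.

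The 55 transcripts moved as a group. Over the 35 columns other than the reference, the correlation of a gene with the median of the other 54 had a median of 0.91, and 49 of 55 genes were at 0.8 or above. For the 6441 other genes, the correlation with the median of the 55 had a median of -0.03, and 199 were at 0.8 or above. These are descriptions, since all columns share 1 reference and columns of a strain share a culture series. The spread of the 55 levels was smaller than that of all genes in 35 of 35 columns, with a standard deviation over genes of 0.26 against 0.56 in wild type with endogenous promoters at 2 hours. *UTP14*, a processome component, followed the group most closely (0.98). The 3 least like it were *BUD21*, a processome protein (0.36), *NOP8*, a large-subunit factor (0.44), and *NOP10*, the smallest H/ACA core protein (0.56). Of the 20 other genes most like the group, 14 were on the list of other assembly factors, led by *RRB1* and *NOP13* (both 0.97), 2 were RNA polymerase I subunits (*RPA34*, 0.95, and *RPA135*, 0.93), and 0 were ribosomal protein genes.

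**Figure D2:**
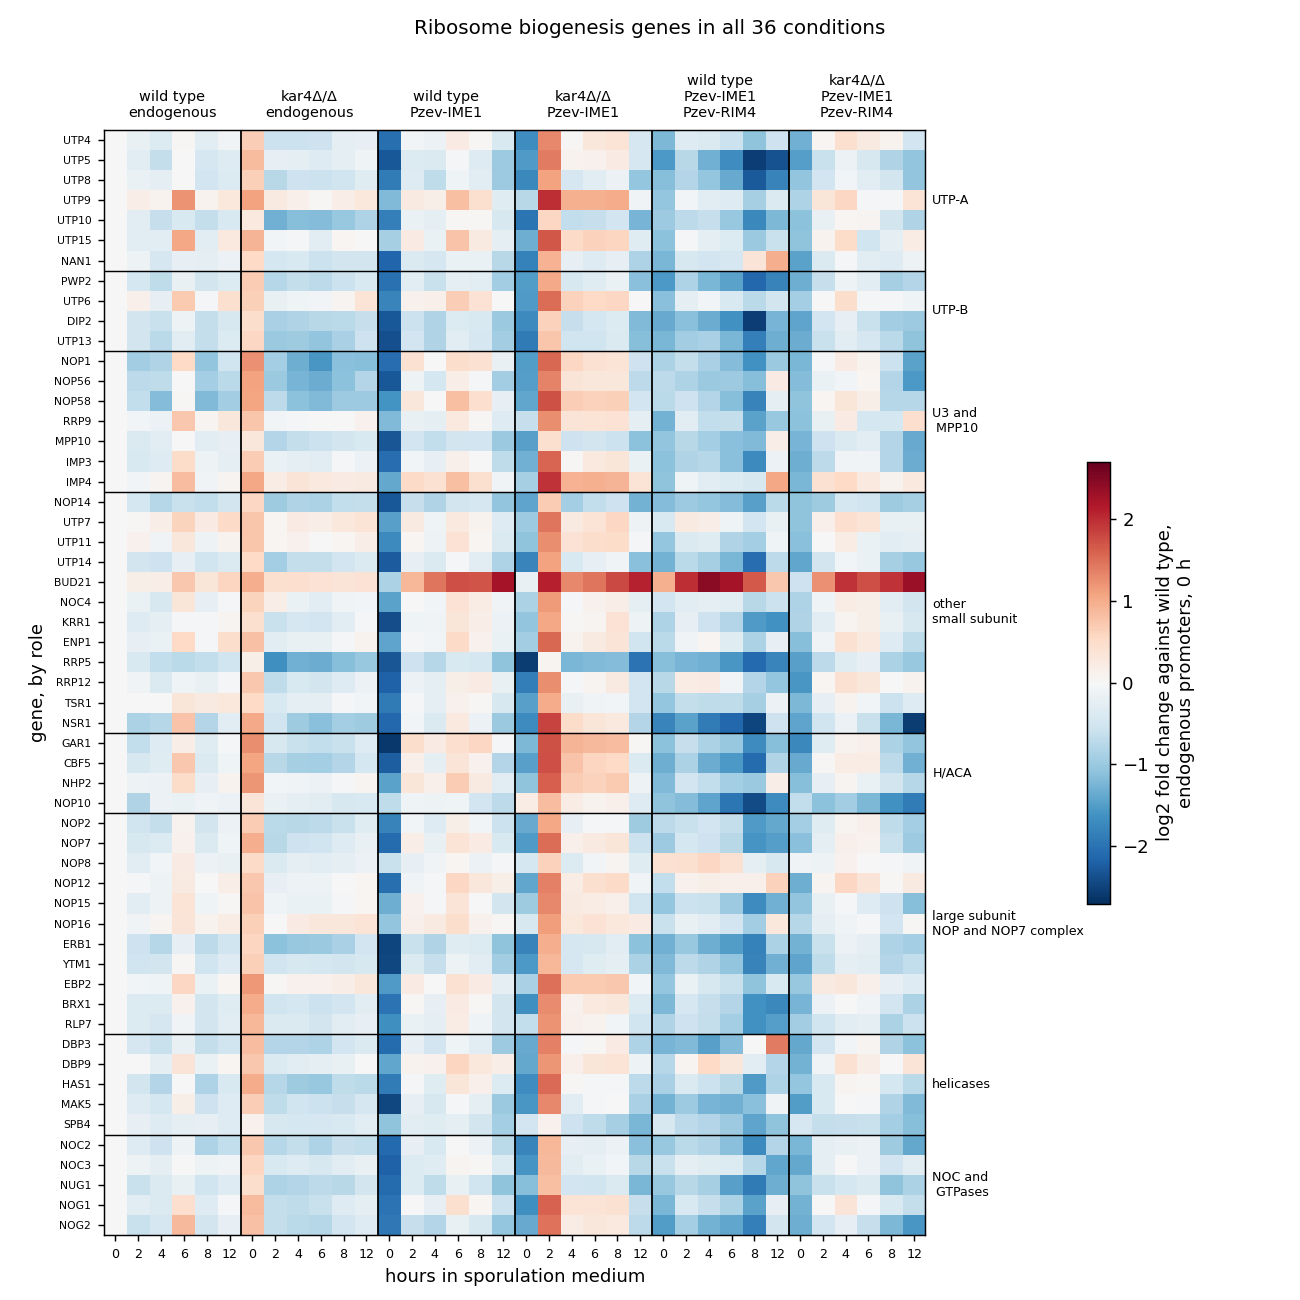
Levels of the 55 ribosome biogenesis genes (rows, grouped by role) in the 36 conditions (columns, by strain and hours), as log2 fold change against wild type with endogenous promoters at 0 hours. The 0 hour columns of the Pzev strains are blue in nearly every row, *kar4*Δ/Δ Pzev-*IME1* at 2 hours is red in every row, and *BUD21* stands out as red across the Pzev columns after 0 hours.

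With endogenous promoters the group stayed close to its starting level in wild type. The median level was -0.34 at 2 hours, -0.38 at 4, 0.11 at 6, -0.33 at 8 and -0.17 at 12 hours. At 12 hours 0 of 55 genes were 2-fold from their 0 hour level in either direction, where 3.96% of all genes were lower and 6.33% higher. The 6 hour column was the high one of the series. *NSR1*, which binds pre-rRNA, was at -0.86 at 2 hours, -0.77 at 4, 0.77 at 6, -0.80 at 8 and -0.29 at 12 hours. *CBF5*, the pseudouridine synthase of H/ACA particles, was at -0.43, -0.33, 0.72, -0.39 and -0.13 at the same times. *PWP2* was at -0.48, -0.68, -0.21, -0.50 and -0.36, so the 6 hour value was the highest of the 5 in all 3 genes. Other genes did not follow. *RRP5* had its lowest level at 6 hours (-0.72), and *UTP10* was higher at 2 hours (-0.32) than at 6 (-0.42).

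In *kar4*Δ/Δ with endogenous promoters the levels were nearly flat from 2 hours on. The median was 0.73 at 0 hours, -0.54 at 2, -0.47 at 4, -0.54 at 6, -0.42 at 8 and -0.29 at 12 hours. Against the strain's own 0 hour column, 37 of 55 genes were at least 2-fold lower at 2 hours (background 5.33%) with a median difference of -1.26, and 26 were at 12 hours (background 5.37%) with a median of -0.97. That baseline is the column in which *KAR4* went against its label. It also had the stress genes, a list of 15 headed by *HSP12* and *CTT1*, at a median of -1.16, where 10 of 15 were at least 2-fold below wild type (background 1.29%). The part of either in the fall was not tested, and against wild type at 0 hours 4 genes were at least 2-fold lower at 2 hours (background 2.02%) and 2 at 12 hours (background 2.72%).

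Between the columns with endogenous promoters, the group differed most at 0 and at 6 hours. At 0 hours 11 of 55 genes were at least 2-fold higher in the column labelled *kar4*Δ/Δ (background 1.48%), with a median difference of 0.73, but in that column *KAR4* goes against the label. At 6 hours all 55 were lower in *kar4*Δ/Δ with a median difference of -0.61, and 10 of them by at least 2-fold (background 2.88%). *NOP1* at 6 hours was at 0.53 in wild type but at -1.57 in *kar4*Δ/Δ, a difference of -2.10, and *NSR1* (-1.90), *CBF5* and *NOG2* (both -1.64), a GTPase of the large subunit, followed. By role the box C/D, U3 and Mpp10p proteins had 3 of 7 past 2-fold, UTP-A 2 of 7, UTP-B 0 of 4 and the large-subunit NOP factors 0 of 11. In the remaining roles *NOG1* and *NOG2* (NOC and GTPase group), *HAS1* (helicases), *NSR1* (other small-subunit factors) and *CBF5* (H/ACA) passed. At 2, 4, 8 and 12 hours the medians were -0.20, -0.08, -0.02 and -0.10, and 1 gene passed 2-fold in all of these, *RRP5* at 2 hours (-1.25, background 1.75%). The wild type column at 6 hours stood apart from its neighbours, since the group's median change from 4 to 8 hours was 0.01, and *IME1* was at 0.82, 0.15 and 1.15 at 4, 6 and 8 hours there. The part of that column in the difference was not tested. After quantile normalization of the columns the 6 hour count was 29 and the median -1.02. The share of all genes past 2-fold after that scaling was not computed, here or below.

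At 12 hours the 3 lowest differences with endogenous promoters were *NSR1* (-0.66), *NOP1* (-0.61) and *RRP5* (-0.49), and the 3 highest were *EBP2* (0.25), *UTP5* (0.23) and *NOP16* (0.17). None of these reached 2-fold, where 1.69% of all genes were lower by that much and 1.09% higher.

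**Figure D3:**
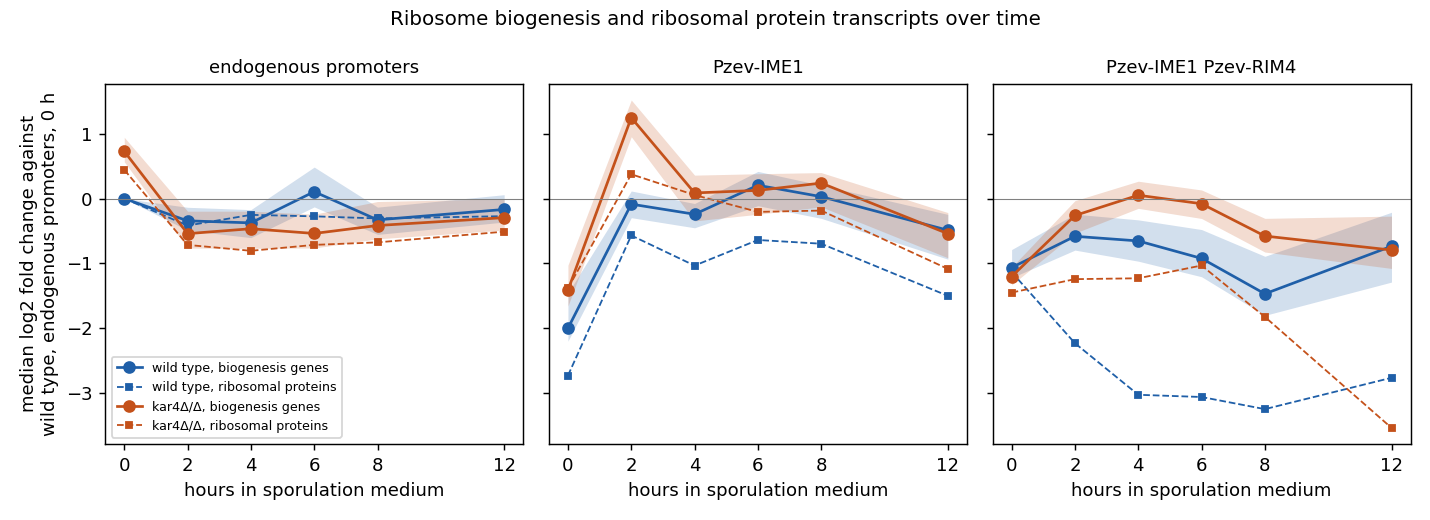
Median log2 fold change against wild type with endogenous promoters at 0 hours, by hours in sporulation medium, for the 55 ribosome biogenesis genes (solid, band from the lower to the upper quartile over genes) and the 137 ribosomal protein genes (dashed). Wild type is blue and *kar4*Δ/Δ orange, in 3 promoter backgrounds. Biogenesis genes start at -2.0 in wild type Pzev-*IME1* and peak at 1.25 in *kar4*Δ/Δ Pzev-*IME1* at 2 hours, and in the last panel the ribosomal protein medians reach -3.54 while no biogenesis median is below -1.47.

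The strains with Pzev-*IME1* began far below those with endogenous promoters. At 0 hours 51 of 55 genes in wild type Pzev-*IME1* were at least 2-fold below wild type with endogenous promoters (background 16.7%), with a median difference of -2.0, which is 4.01-fold. In *kar4*Δ/Δ the same comparison had 53 of 55 lower (background 18.5%) and a median of -2.19, against the 0 hour column in doubt. The low start held in every role. Medians in wild type Pzev-*IME1* at 0 hours were -1.88 in UTP-A, -2.15 in UTP-B, -2.06 in the box C/D, U3 and Mpp10p group, -1.83 in H/ACA, -1.81 in the large-subunit NOP factors, -1.89 in helicases and -2.08 in the NOC and GTPase group. *GAR1*, an H/ACA core protein, was lowest at -2.60, and *BRX1*, a large-subunit factor, lay at the median. The 4 genes short of 2-fold were *UTP15* (-0.89), *BUD21* (-0.85), *NOP10* (-0.68) and *NOP8* (-0.59).

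Genes of the same pathway were low with them. At 0 hours in wild type Pzev-*IME1* the other assembly factors had 69 of 86 at least 2-fold lower (median -1.49) and ribosomal protein genes 134 of 137 (median -2.73). The RNA polymerase I list had 7 of 17 lower by that much (median -0.93), all of them subunits. The largest RNA polymerase I subunits *RPA190* and *RPA135* were at -2.37 and -2.58. The stress genes had a median of 0.08, with 2 of 15 at least 2-fold higher (*TSL1*, 1.36, and *TPS2*, 1.27, of trehalose synthesis) and *HSP12* lowest at -0.96. Transcripts of the regulators were at 1.08 for *STB3*, 0.31 for *DOT6*, -0.83 for *TOD6* and 0.22 for the activator *SFP1*. The level of *STB3* was its highest of all 36 columns. Genes outside the group that held both motif cores were also low, with a median of -1.01 over 217 genes, while the 4432 genes with neither had a median of 0.08. Within the group the 8 genes without an RRPE core had a median of -1.80 against -2.01 for the 47 with it.

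By 2 hours the wild type Pzev-*IME1* strain had returned to the reference level. From 0 to 2 hours 51 of 55 genes went up at least 2-fold (background 23.6%) with a median difference of 1.80. *NOP1* went from -2.06 to 0.42, *UTP10* from -1.85 to -0.18, *MPP10* from -2.32 to -0.51, *NOP7* from -2.08 to 0.17 and *NOG1*, a large-subunit GTPase, from -1.98 to 0.02. These 5 genes then changed by less than 2-fold until 8 hours and were lower at 12 hours, at -0.19, -0.44, -1.0, -0.40 and -0.58. The group's median was -0.09 at 2 hours, -0.24 at 4, 0.21 at 6, 0.03 at 8 and -0.49 at 12 hours. At 12 hours 45 of 55 were still at least 2-fold above the 0 hour column (background 25.2%, median 1.36), but against 2 hours the median difference was -0.50, and after quantile normalization 12 passed with a median of 0.81. Against endogenous promoters at 12 hours the median was -0.46, 0 of 55 were 2-fold lower (background 8.37%) and only *BUD21* was 2-fold higher (1.65, background 10.8%). The next highest were *NOP58* (0.71) and *NOP1* (0.34), both box C/D proteins, and the lowest were *UTP7* (-0.87), *NOG2* (-0.84) and *MPP10* (-0.77).

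In *kar4*Δ/Δ Pzev-*IME1* the 2 hour level overshot the reference. From 0 to 2 hours 53 of 55 genes went up at least 2-fold (background 23.4%), with a median difference of 2.68. The median level was -1.41 at 0 hours, 1.25 at 2, 0.09 at 4, 0.13 at 6, 0.24 at 8 and -0.54 at 12 hours. All 55 levels at 2 hours lay between 0.08 (*RRP5*) and 2.11 (*BUD21*), above the reference in every gene. *CBF5* was at -1.47, 1.74, 0.78, 0.59, 0.55 and -0.38 over the 6 times, *NSR1* at -1.70, 1.83, 0.50, 0.33, 0.26 and -0.79, and *DBP3*, a DEAD-box helicase of the large subunit, at -1.35, 1.36, -0.04, 0.02, 0.21 and -0.83. In each the 2 hour value was the highest of the strain. From 2 to 12 hours 52 of 55 genes went down at least 2-fold, where 639 of 6496 of all genes did (9.84%), with a median of -1.82. At 12 hours 14 of 55 were still 2-fold above 0 hours (background 19.2%, median 0.78), and *BUD21* (2.28), *UTP6* (1.53) and *RRP12* (1.34) were the highest while *SPB4* (-0.72), *NOP10* (-0.55) and *NUG1* (-0.07) were the lowest.

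The 2 hour sample held the clearest difference between the genotypes. With Pzev-*IME1* at 2 hours all 55 genes stood above wild type in *kar4*Δ/Δ, 49 by at least 2-fold (background 7.37%), with a median difference of 1.30 (2.46-fold) and quartiles of 1.17 and 1.46. The count was 6 of 7 in UTP-A, 4 of 4 in UTP-B, 6 of 7 in the box C/D, U3 and Mpp10p group, 11 of 12 other small-subunit factors, 3 of 4 in H/ACA, 10 of 11 large-subunit NOP factors, 4 of 5 helicases and 5 of 5 in the NOC and GTPase group. *NOG2* had the largest difference (2.10, from -0.63 to 1.48), *UTP14* was at the median (1.30) and *SPB4*, a helicase, had the smallest (0.39). After quantile normalization 44 genes passed, and 1 passed a size of 4-fold. At 0, 4, 6, 8 and 12 hours the medians were 0.55, 0.25, -0.12, 0.16 and -0.05, with 3, 1, 0, 0 and 0 genes at least 2-fold higher (backgrounds 4.86%, 4.09%, 1.49%, 1.11% and 2.31%) and 0 lower (backgrounds 3.89%, 5.51%, 3.34%, 3.86% and 5.37%).

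Other lists differed with the group at 2 hours. The other assembly factors had 70 of 86 at least 2-fold higher in *kar4*Δ/Δ (median 1.25), RNA polymerase I 6 of 17 (median 0.77) and ribosomal protein genes 67 of 137 (median 0.97). The stress genes went the other way, with 8 of 15 at least 2-fold lower (background 7.8%) and 0 higher (median -1.07), and *CTT1*, cytosolic catalase, was at -0.66 in wild type but at -2.31 in *kar4*Δ/Δ. Of the meiotic genes 1 of 10 was at least 2-fold lower and 0 higher (median 0.03), with *IME1* at 3.05 and 3.28 and *IME2* at 3.85 and 3.57. Genes outside the group with both motif cores had a median difference of 0.81 and those with neither -0.06. Ribosomal protein genes were also at least 2-fold higher in *kar4*Δ/Δ at 0 hours (100 of 137, background 4.86%) and 4 hours (87 of 137, background 4.09%). The biogenesis genes had medians of only 0.55 and 0.25 at those times. Whether the stress genes have a part in the difference was not tested.

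**Figure D4:**
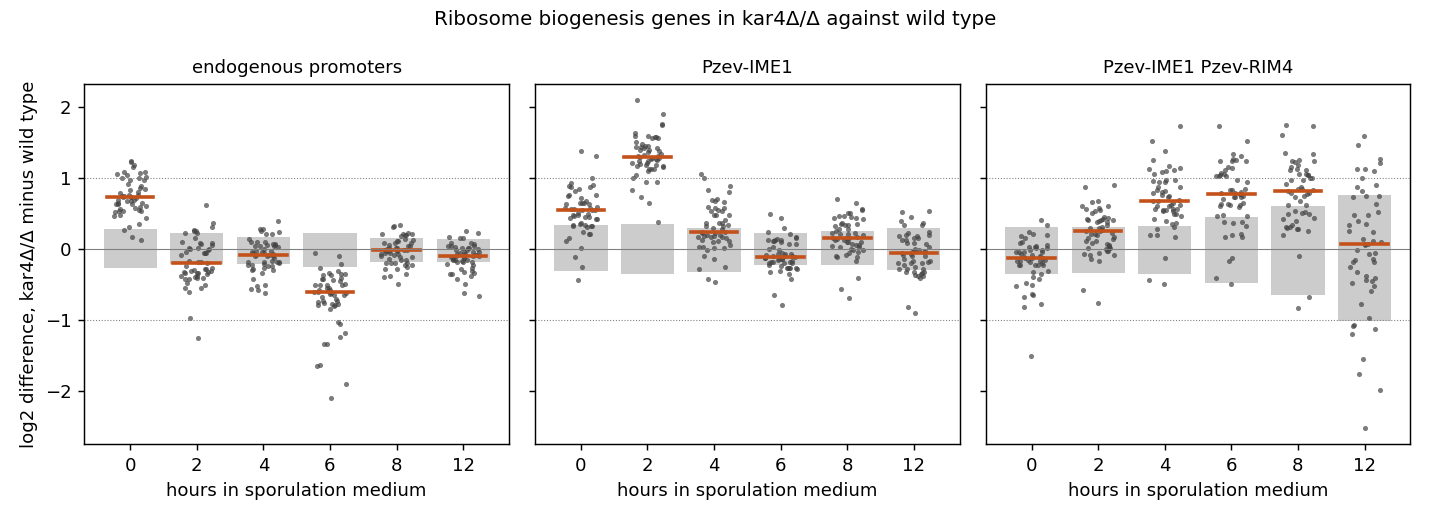
Log2 fold change of *kar4*Δ/Δ minus that of wild type at each time (hours) in 3 promoter backgrounds, with 1 point per ribosome biogenesis gene, the median of the 55 as an orange bar, and a grey box from the lower to the upper quartile of all 6496 genes. Dotted lines mark 2-fold. All 55 points are above 0 with Pzev-*IME1* at 2 hours and all are below 0 with endogenous promoters at 6 hours, and at 12 hours with both Pzev promoters they spread from -2.52 to 1.6.

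A few genes set themselves apart in these differences. *RRP5*, which acts in both subunits, and *UTP10* were among the 3 lowest of the 55 in the Pzev-*IME1* differences at 2, 4, 6, 8 and 12 hours. At 12 hours they were at -0.90 and -0.82, with *NOC2* next at -0.40, and the highest were *UTP5* (0.54), *IMP3* (0.52) and *IMP4* (0.45). *RRP5* and *UTP10* are the longest genes of the group, at 5190 and 5310 bases. The rank correlation of gene length with the difference over the 55 was -0.48 at 12 hours with Pzev-*IME1*, -0.77 at 2 hours with endogenous promoters and -0.01 at 2 hours with Pzev-*IME1*. With both promoters it was positive at all 6 times, from 0.02 to 0.22. Over all 5883 genes with a length it was -0.16, -0.45 and -0.15. Genes of a column share its libraries, and the part of length in these differences was not tested.

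With both Pzev promoters the wild type median rose to 2 hours, fell to its lowest level at 8 hours and was higher again at 12. It was -1.07 at 0 hours, -0.58 at 2, -0.65 at 4, -0.92 at 6, -1.47 at 8 and -0.74 at 12 hours, below the reference in all 6. At 0 hours 22 of 55 genes were at least 2-fold higher than in wild type Pzev-*IME1* (background 14.4%, median 0.90), in the column where the meiotic genes were already high. At 6 and 8 hours the order was turned, with 35 and 38 of 55 at least 2-fold lower than with Pzev-*IME1* alone (backgrounds 14.2% and 17.3%) and medians of -1.13 and -1.39. *NSR1* was at -0.17 with Pzev-*IME1* and -2.47 with both at 8 hours, *CBF5* at 0.11 and -2.08, *NOP1* at 0.42 and -1.64, and *PWP2* at -0.31 and -2.12. After quantile normalization 8 genes passed at 8 hours with a median of -0.77.

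When *kar4*Δ/Δ carried both promoters the group rose from a similar start and lay nearer to the reference than wild type from 2 to 8 hours, but not at 0 or 12 hours. The median was -1.20 at 0 hours, -0.26 at 2, 0.05 at 4, -0.08 at 6, -0.58 at 8 and -0.79 at 12 hours. From 0 to 4 hours 45 of 55 went up at least 2-fold (background 19.4%, median 1.27). The overshoot at 2 hours seen with Pzev-*IME1* alone was lacking. There 49 of 55 genes were at least 2-fold lower with both promoters than with Pzev-*IME1* (background 11.2%, median -1.50), and *IMP3*, of the Mpp10p complex, differed by -2.27. Between genotypes with both promoters 18 of 55 were at least 2-fold higher in *kar4*Δ/Δ at 6 hours (background 10.7%, median 0.77) and 18 at 8 hours (background 12.8%, median 0.82). *UTP8* (1.76) and *UTP5* (1.73) of UTP-A and *DIP2* (1.6) of UTP-B led at 8 hours. After quantile normalization 1 and 0 genes passed, so neither call holds under that scaling, where the share of all genes was not computed. Of the 10 meiotic genes 7 at 6 hours and 5 at 8 hours stood at least 2-fold below wild type in *kar4*Δ/Δ (backgrounds 11.1% and 17.6%), while *IME1* was above it at both times, and *NDT80*, which starts the meiotic divisions, was at 5.41 in wild type but at 0.34 in *kar4*Δ/Δ at 8 hours. The part of this difference in progression was not tested.

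At 12 hours the genotypes with both promoters differed in both directions. There *kar4*Δ/Δ had 8 of 55 genes at least 2-fold below wild type and 8 above it (backgrounds 25.2% and 17.9%), around a median of 0.07. The levels of the group were still less spread than those of all genes, with standard deviations of 0.80 against 2.11 in wild type and 0.73 against 1.45 in the mutant. The lowest were *DBP3* (-2.52), *NSR1* (-1.99) and *NOP56*, a box C/D core protein (-1.76), and the highest were *BUD21* (1.6), *RRP9*, a U3-specific protein (1.47), and *UTP5* (1.28). *EBP2* was nearest the median (0.07). By role the median difference was 0.74 in UTP-A and 0.31 in UTP-B, but -0.78 in the box C/D, U3 and Mpp10p group. The shares past 2-fold were no larger than those of all genes, and after quantile normalization 4 genes passed in place of 16.

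Most of the group rose in wild type with both promoters between 8 and 12 hours, by unlike amounts. In that interval 48 of the 55 went up, with a median of 0.55, against a median of 0.12 for all genes. Of the 55, 15 went up at least 2-fold (background 10.1%). *MPP10* went from -1.19 to 0.18, *NOP56* from -1.14 to 0.21, *IMP4* from -0.44 to 1.05 and *NSR1* from -2.47 to -0.57. *PWP2* (-2.12 and -1.80), *UTP5* (-2.53 and -2.35) and *NOP7* (-1.60 and -1.49) stayed low. Against 0 hours 10 of 55 were at least 2-fold higher at 12 hours (background 26.6%), led by *DBP3* (2.65), *NAN1* of UTP-A (2.23) and *IMP4* (2.12), and the lowest were *NOP8* (-0.85), *KRR1* and *UTP5* (both -0.81). Against wild type Pzev-*IME1* at 12 hours *DBP3* (2.39), *NAN1* (1.73) and *MPP10* (1.19) were highest and *BUD21* (-1.51), *KRR1* (-1.47) and *UTP5* (-1.37) lowest, with 7 of 55 at least 2-fold lower and 5 higher (backgrounds 20.3% and 24.0%). *DOT6*, the PAC-binding repressor, had its highest levels of all columns in the same strain, at 1.21 at 8 hours and 1.48 at 12 hours, against -0.65 and -0.59 in *kar4*Δ/Δ. *TOD6*, its paralog, was at -0.69 and -1.0.

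The 12 hour comparisons of *kar4*Δ/Δ listed next had smaller shares past 2-fold than all genes did. With both promoters at 12 hours 10 of 55 genes were at least 2-fold above 0 hours (background 20.6%) and 2 below (background 18.5%). The highest were *BUD21* (2.88), *RRP12* (1.66) and *DBP9*, a helicase (1.62), and the lowest were *NOP10* (-1.21), *NSR1* (-1.13) and *SPB4* (-0.71). Against *kar4*Δ/Δ Pzev-*IME1* 4 genes were at least 2-fold lower and 0 higher (backgrounds 9.13% and 6.23%), with *NSR1* (-1.77), *NOP10* (-1.53) and *IMP3* (-1.18) lowest and *RRP5* (0.96), *RRP9* (0.72) and *NAN1* (0.71) highest. Without *RIM4* overexpression, Pzev-*IME1* against endogenous promoters in *kar4*Δ/Δ had *RRP5* (-0.96), *SPB4* (-0.94) and *NUG1*, a GTPase (-0.73), lowest and *BUD21* (1.68), *NOP1* (0.58) and *NOP58* (0.46) highest, with 1 gene at least 2-fold higher (background 7.47%) and 0 lower (background 5.34%).

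**Figure D5:**
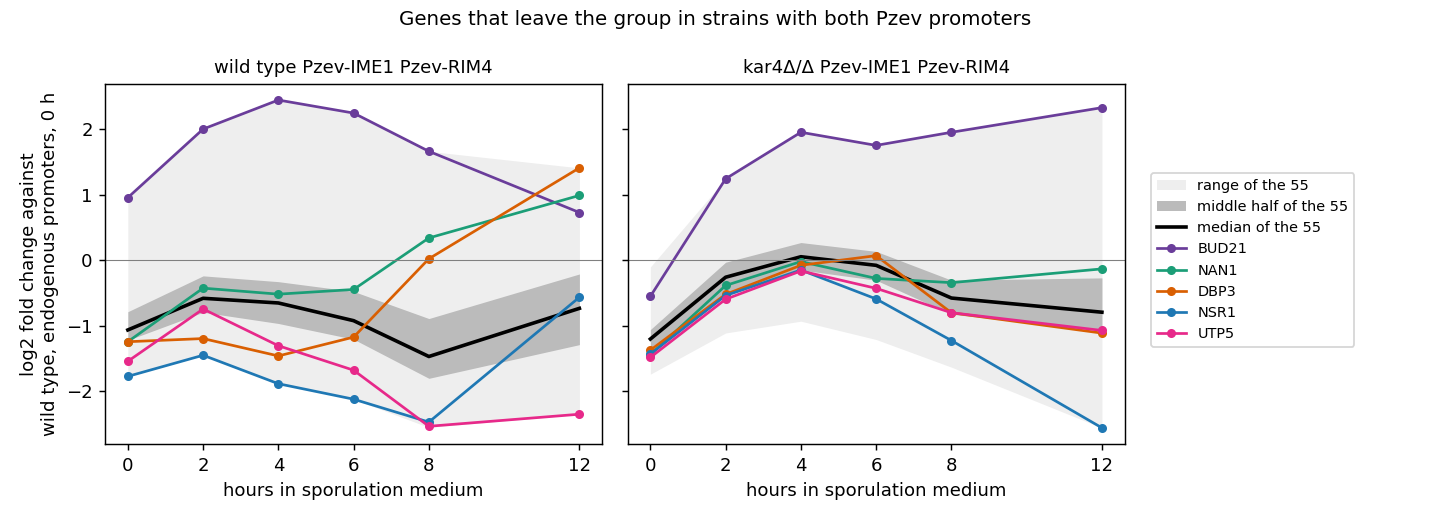
Log2 fold change against wild type with endogenous promoters at 0 hours, by hours in sporulation medium, in the 2 strains with both Pzev promoters. The black line is the median of the 55 genes, dark grey their quartile range and light grey their range, and 5 genes named in the text are coloured. Over all columns *UTP5* and *NSR1* of these 5 followed the group, with correlations of 0.91 and 0.90. *BUD21* lies above the others at most times, *DBP3* and *NAN1* climb to 1.41 and 0.99 in wild type at 12 hours, and *NSR1* ends at -2.56 in *kar4*Δ/Δ.

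*BUD21* was the member that followed the group least, although its promoter (chrXV:472475-472774, plus strand) held a PAC and an RRPE core 11 bases apart. It is shown whole for that reason, and it was chosen after its values were seen.
BUD21: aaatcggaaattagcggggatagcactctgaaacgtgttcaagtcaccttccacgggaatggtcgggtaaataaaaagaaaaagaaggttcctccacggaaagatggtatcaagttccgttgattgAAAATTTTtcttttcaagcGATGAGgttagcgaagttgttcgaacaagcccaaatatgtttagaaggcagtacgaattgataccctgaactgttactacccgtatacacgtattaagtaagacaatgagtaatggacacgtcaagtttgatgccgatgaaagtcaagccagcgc

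With endogenous promoters *BUD21* stayed between 0 and 0.73 in wild type. With Pzev-*IME1* it climbed through the series, at -0.85, 0.90, 1.45, 1.75, 1.69 and 2.24 in wild type, while *kar4*Δ/Δ was at -0.20, 2.11, 1.31, 1.44, 1.79 and 2.07. With both promoters it was at 0.95, 2.00, 2.44, 2.24, 1.66 and 0.73 in wild type, while *kar4*Δ/Δ was at -0.55, 1.24, 1.95, 1.75, 1.95 and 2.32. The levels of the 2 genotypes overlapped in both backgrounds. *RTS2*, which ends 127 bases before *BUD21* on the same strand, was at 2.46 in wild type with both promoters at 8 hours and 3.02 in *kar4*Δ/Δ at 12 hours. *HHO1*, 605 bases from *NAN1* on the other strand, was at 2.97 and 3.75 in wild type with both promoters at 8 and 12 hours. *HNM1*, which ends 365 bases before *DBP3* on the same strand, was at 2.48 and 2.18 in that strain at those times. *HNM1* was higher still in *kar4*Δ/Δ with both promoters at 12 hours (2.86), where *DBP3* was at -1.11. Whether transcription of a neighbour has a part in the values of *BUD21*, *NAN1* or *DBP3* was not tested. *NOG2* overlaps an annotated non-coding gene, and how the authors' counting treated strand is not given in the sources used here.

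The biogenesis genes and the ribosomal protein genes parted in some intervals in the strains with both Pzev promoters. In wild type the ribosomal protein median was -1.14 at 0 hours, -2.23 at 2, -3.03 at 4, -3.06 at 6, -3.25 at 8 and -2.77 at 12 hours. From 0 to 4 hours 127 of 137 ribosomal protein genes went down at least 2-fold (background 11.2%) while 0 of the 55 biogenesis genes did and 3 went up (background 13.6%). In *kar4*Δ/Δ the ribosomal protein median was -1.45, -1.24, -1.23, -1.03, -1.83 and -3.54. From 8 to 12 hours 117 of the 137 went down at least 2-fold with a median of -1.58, but 1 of the 55 biogenesis genes did, with a median of -0.18 (background 5.30%). Other intervals went differently. In wild type with both promoters 12 of the 55 and 1 of the 137 fell at least 2-fold from 4 to 8 hours (background 4.37%). From 8 to 12 hours both lists rose there, with medians of 0.546 and 0.555. In *kar4*Δ/Δ Pzev-*IME1* 41 of the 55 and 0 of the 137 fell at least 2-fold from 2 to 4 hours (background 5.26%). With endogenous promoters the medians of both lists stayed between -0.81 and 0.11 after 0 hours in both genotypes. The other assembly factors were above the biogenesis genes with both promoters, at a median of -0.83 against -1.47 in wild type at 8 hours and -0.43 against -0.79 in *kar4*Δ/Δ at 12 hours.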

How the data were processed

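Per the labels and the study's methods, mRNA libraries were sequenced by a commercial provider, and on the Galaxy platform the authors aligned reads with BWA-MEM, counted them per gene with htseq-count and compared conditions in DESeq2, with sacCer3 as the build. Versions, strand settings and filters are not given in the sources used here. The deposited file gives the authors' log2 fold changes for 6660 genes in 36 conditions against wild type with endogenous promoters at 0 hours, whose own column is 0. The 72 libraries are combined in pairs, so replicate error, depth and counting precision are unknown, nothing was tested, and values rest on 2 cultures each. The 16 columns without a name were not used, and 164 genes without a value in every column were left out.

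Differences between conditions were computed by subtraction in Python 3.11.15 with numpy 2.4.6 and pandas 2.3.3, which removes the common reference where fold changes add up, and were counted at 2-fold. Groups and scripts were checked on simulated data. The members and the lists (other assembly factors, RNA polymerase I, regulators, stress genes, meiotic program) were chosen with earlier results of these data known. Ribosomal protein genes are those whose RefSeq symbol begins RPL, RPS or RPP with a number, without *RPP1*, a subunit of RNase P. Named throughout were *NOP1*, *UTP10*, *PWP2*, *MPP10*, *RRP5*, *CBF5*, *NSR1*, *NOP7*, *DBP3* and *NOG1*, and in each comparison at 12 hours the 3 lowest and 3 highest genes, the gene nearest the median and the 3 genes least like the group. Of the other lists *SFP1*, *STB3*, *DOT6*, *TOD6*, *RPA190*, *RPA135*, *HSP12*, *CTT1*, *IME1*, *IME2*, *NDT80* and *KAR4* were chosen by name. Other genes were named after their values were seen. Promoters were cut from the RefSeq R64 genome, whose gene starts are start codons. The alternatives were centring, quantile normalization, a 4-fold size, other baselines, all genes with values in the compared columns as background, and only the bases before the start for motifs.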

Additional observations from a re-analysis of the deposited data

Results flagged for a closer look

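At 2 hours the group stood on opposite sides of wild type in *kar4*Δ/Δ depending on the promoter background. The median of *kar4*Δ/Δ minus wild type was 1.30 with Pzev-*IME1*, where 55 of 55 genes were higher, and -0.20 with endogenous promoters, where 38 of 55 were lower, which puts the 2 medians 1.5 apart on the log2 scale. This difference between backgrounds was not tested, since the columns hold no replicates.

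At 6 hours the median difference was 0.77 with Pzev-*IME1* Pzev-*RIM4* and -0.61 with endogenous promoters, 1.38 apart, with 51 of 55 genes higher in the first and 55 of 55 lower in the second. This difference was not tested either, and the 18 genes 2-fold higher with both promoters fell to 1 under quantile normalization.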

How the results depend on the processing

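Centring each column on its median kept the direction and size class of all 48 values recomputed, the background with all genes in the compared columns kept all 48, and counting motifs only before the start kept both. No paired analysis was possible because the deposited columns combine the replicates, and leaving out a replicate was not possible for the same reason. Depth limits cannot be given.

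Shares of all genes were not recomputed under quantile normalization or the 4-fold size, so those counts have no background. Quantile normalization gives every column the same spread, and it kept 29 of 48 values on their side of 2-fold, or within 1.5 times for counts. With it 3 medians near 0 at 12 hours changed sign, namely between genotypes with both promoters (0.07 to -0.092) and between both Pzev promoters and Pzev-*IME1* in wild type (-0.24 to 0.085) and *kar4*Δ/Δ (-0.057 to 0.10). The number of genes at least 2-fold from 0 hours at 12 hours became 3 in wild type but 50 in *kar4*Δ/Δ with endogenous promoters (median -1.86), 12 (median 0.81) and 7 with Pzev-*IME1*, and 26 in wild type with both Pzev promoters. Between genotypes it became 29 at 6 hours (median -1.02) and 3 at 12 hours with endogenous promoters, and 1, 0 and 4 at 6, 8 and 12 hours with both Pzev promoters. Between Pzev-*IME1* and endogenous promoters at 12 hours it became 2 in wild type but 3 in *kar4*Δ/Δ. Between both Pzev promoters and Pzev-*IME1* it became 8 (median -0.77) at 8 hours and 4 at 12 hours in wild type, and 1 at 12 hours in *kar4*Δ/Δ.

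A 4-fold size lowers counts by construction. From 0 to 12 hours it left 2 genes in *kar4*Δ/Δ with endogenous promoters, 4 and 1 with Pzev-*IME1* and 3 and 1 with both (wild type first), and from 0 to 2 hours 2 in *kar4*Δ/Δ with endogenous promoters and 13 in wild type Pzev-*IME1*. Between genotypes it left 1 at 6 hours with endogenous promoters, 1 at 2 hours with Pzev-*IME1*, and 0, 0 and 1 at 6, 8 and 12 hours with both. Between Pzev-*IME1* and endogenous promoters it left 28 in wild type at 0 hours and 0 in each genotype at 12 hours. Between both Pzev promoters and Pzev-*IME1* it left 7 at 8 hours and 1 at 12 hours in wild type, and 3 at 2 hours and 0 at 12 hours in *kar4*Δ/Δ.

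The baseline decided the changes over time, since the 0 hour columns of the strains differ. With 2 hours as baseline, 12 hours had 0 genes past 2-fold in *kar4*Δ/Δ with endogenous promoters, 1 in wild type Pzev-*IME1* (median -0.50, reversed), 52 in *kar4*Δ/Δ Pzev-*IME1* (median -1.82, reversed) and 7 in *kar4*Δ/Δ with both. The median also changed sign with this baseline, below 2-fold on either side, in wild type (-0.17 to 0.12) and *kar4*Δ/Δ (-0.97 to 0.25) with endogenous promoters and in wild type (0.23 to -0.31) and *kar4*Δ/Δ (0.37 to -0.48) with both. With wild type at 0 hours as the common baseline, the counts at 12 hours were 2 in *kar4*Δ/Δ with endogenous promoters, 7 in wild type Pzev-*IME1* (median -0.49, reversed), and with both promoters 23 in wild type but 20 in *kar4*Δ/Δ. At 2 hours they were 4 in *kar4*Δ/Δ with endogenous promoters (median -0.54) and 0 in wild type Pzev-*IME1* (median -0.086, reversed). Medians at 12 hours changed sign against that baseline, below 2-fold, in *kar4*Δ/Δ Pzev-*IME1* (0.78 to -0.54) and with both promoters in wild type (0.23 to -0.74) and *kar4*Δ/Δ (0.37 to -0.79).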

Other observations

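Among the genes outside the group, 154 held both motif cores and were on neither the list of other assembly factors nor that of RNA polymerase I. Their median was -0.78 in wild type Pzev-*IME1* against endogenous promoters at 0 hours. There 62 were at least 2-fold lower and 5 higher (backgrounds 16.7% and 6%). In *kar4*Δ/Δ against wild type with Pzev-*IME1* at 2 hours their median was 0.53. There 36 were at least 2-fold higher and 3 lower (backgrounds 7.37% and 7.8%). Of the 20 genes whose levels were most like those of the group, 4 were on none of the lists, namely *MRD1* (correlation 0.95), a small-subunit processing factor, *URA7* (0.94), a CTP synthase, *HGH1* (0.93) and the open reading frame YNL174W (0.95). By systematic name YNL174W is next to *NOP13* (YNL175C) on the other strand. Whether reads of *NOP13* have a part in its values was not tested.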
